A study of Mus musculus with 20 samples.

Results

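The 41 genes described here code for the enzymes, carriers and regulators of fatty acid oxidation and for the ketone body enzyme Bdh1, and were matched by gene symbol among the 55487 genes of a liver RNA-seq count table. They comprised 22 genes whose products act in mitochondria, 12 whose products act in peroxisomes, 3 placed in both and 4 placed elsewhere in the cell. The livers came from 20 female C57BL/6J mice, 28 weeks old, with 1 library per mouse. The 5 chow-fed mice had been kept on chow throughout, and the 15 HFD-fed mice had received a high-fat diet for 10 weeks and then, for another 10 weeks, a high-fat diet in which part of the casein was replaced by salmon fishmeal (fishmeal, n = 5), by salmon filet (n = 6) or by beef (n = 4). The 3 test diets were matched for energy, total fat, carbohydrate and protein, but differed in cholesterol, added soybean oil and the kinds of fatty acid. Between test diets, these differences and the protein source cannot be told apart. No group was fed an unmodified high-fat diet to the end, so a comparison with chow carries the high-fat diet and the test ingredient together. None of the groups carried a genetic change or received a drug.

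Fatty acids enter the mitochondrion as carnitine esters made by Cpt1a, and are shortened there by repeated turns of dehydrogenation, hydration, a second dehydrogenation and thiolytic cleavage, with the electrons passed on through the electron-transferring flavoprotein. Peroxisomes shorten very long chains and dicarboxylic acids with a separate set of enzymes and hand the products on to mitochondria. In the fasted liver the acetyl-CoA is turned into ketone bodies, and many of these genes are targets of PPARα, the fatty acid receptor encoded by Ppara.

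Each library held between 42526234 and 70266136 counts, and the 41 genes together made up between 0.867% and 1.33% of them. Mouse 31 is labelled as fed salmon filet in the sample record and as fed beef in the header of the count table. It was kept with salmon filet, and the comparisons of single diets that involved salmon filet or beef were repeated with it as a beef-fed mouse. In that case each of the 4 groups holds 5 mice, the number that the authors state was sequenced from each diet group. Chow-fed mice are numbered from 1 to 10 and fishmeal-fed mice from 12 to 20. Apart from mouse 31, salmon-fed mice run from 22 to 27 and beef-fed mice from 32 to 40. Unless stated otherwise, all results for salmon filet and beef were obtained with mouse 31 in salmon filet and rest on that choice. The fits that left out 1 mouse or added a covariate were made only with that grouping. Mouse 35, fed beef, stood apart by a protein coding share of 84.3%, against 93.2% to 95.6% in the other libraries. The 6 hepatocyte markers (Alb, Apoa1, Ttr, Serpina1a, Fgb and Tat) summed to 95882 to 117277 CPM in chow-fed mice and to 88014 to 114039 CPM in HFD-fed mice, and 0 of the 6 passed the test between these groups, with 1 at an unadjusted p under 0.05. CPM are read counts relative to the library's total, scaled by the trimmed mean of M values (TMM). Tests were made with edgeR's quasi-likelihood test, with p-values adjusted by the Benjamini-Hochberg method over all genes tested, and a gene was called where the adjusted p was under 0.05.

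Of the other cell type markers, 6 of the 7 lymphocyte markers were lower in sign in HFD-fed mice and 3 of the 7 were called lower, with a summed level of 5.04 to 9.56 CPM in chow-fed mice and 2.15 to 5.50 CPM in HFD-fed mice, and no marker of this list was at 0 in any mouse. Sox9 was called lower (1 of 5 cholangiocyte markers), Clec4g lower (1 of 4 endothelial markers) and Cela1 higher (1 of 2 tested markers of exocrine pancreas). Cela1 had 8.57 to 25.9 CPM over all mice, whereas the pancreas markers Cpa1, Prss2, Ctrb1 and Pnlip were at 0 in 17 to 19 mice, so Cela1 alone does not show pancreas tissue. None was called for Kupffer cells (of 6), stellate cells (of 4), red blood cells (of 4) and adipocytes (1 tested, Car3). No marker of muscle reached the level needed for a test. The part of these cells in the results below was not tested, and in bulk liver RNA fewer cells of a type and less RNA per cell cannot be told apart.

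All 41 genes passed the filter on low counts, and 4 of them were called between the 15 HFD-fed and the 5 chow-fed mice, where 9.75% of the 17120 genes tested were called in either direction. Ppara, Vnn1 and Bdh1 were higher (3 of 41, against 4.54% of all genes called higher) and Pdk4 was lower in HFD-fed mice (1 of 41, against 5.21% called lower). DESeq2 called 6 of the 41 genes, the same 4 with Hadh and Acaa1a, where it called 12.6% of all genes. A share of 4 in 41 is near that background and is not a result about the pathway. At an unadjusted p under 0.05 there were 11 of the 41 genes, against 24.4% of all genes tested. By sign, 33 genes were higher and 8 were lower in HFD-fed mice, and the median log2 fold change of the 41 genes was 0.17, against 0.005 over all genes tested. The 22 mitochondrial genes had 2 calls (Bdh1 and Pdk4) and a median of 0.14, the 12 peroxisomal genes had 0 calls and 2 unadjusted p-values under 0.05 with a median of 0.15, and the 3 genes placed in both had 0 calls, 1 unadjusted p under 0.05 and a median of 0.23. Ppara and Vnn1 were among the 4 genes placed elsewhere.

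**Figure D1:**
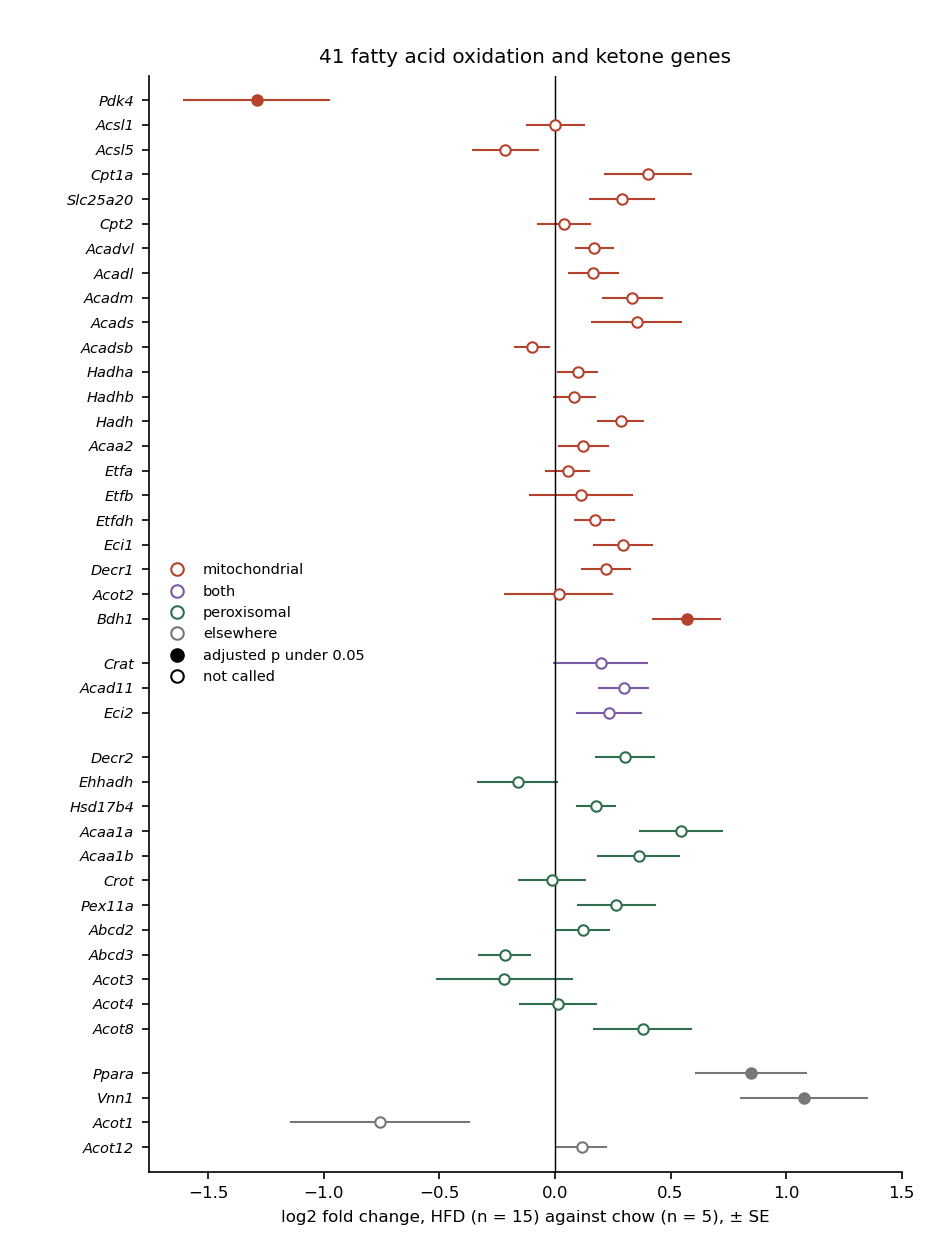
Log2 fold change of each of the 41 genes between HFD-fed (n = 15) and chow-fed (n = 5) mice, with bars of 1 SE, coloured by where the product acts and filled where the adjusted p was under 0.05. Most genes lie slightly to the right of 0, Pdk4 lies far to the left at -1.29 and Vnn1 farthest to the right at 1.08.

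Ppara encodes the nuclear receptor that binds fatty acids and switches on oxidation genes. Its level was 68.6, 84.6, 129, 62.7 and 137 CPM in chow-fed mice 1, 2, 5, 7 and 10. The fishmeal-fed mice 12, 13, 14, 16 and 20 had 99.7, 181, 262, 89.1 and 238 CPM. The beef-fed mice 32, 35, 39 and 40 had 167, 253, 202 and 231 CPM, and the salmon-fed mice ranged from 115 to 187 CPM with a median of 137. All beef-fed mice were above all chow-fed mice, whereas 2 fishmeal-fed and 3 salmon-fed mice lay within the range of the chow-fed mice. Between all HFD-fed and chow-fed mice Ppara was 1.80-fold higher (log2 fold change 0.85, SE 0.24, adjusted p = 0.0288), with 14 of the 15 HFD-fed mice above the chow mean.

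Pdk4, the kinase that blocks pyruvate dehydrogenase and so spares glucose when fat is burned, was the only one of the 41 genes whose HFD-fed and chow-fed mice did not overlap, where 0.9% of all genes tested were without overlap in the lower direction. The chow-fed mice 1, 2, 5, 7 and 10 had 50.6, 48.0, 45.1, 45.1 and 41.6 CPM. The fishmeal-fed mice 12, 13, 14, 16 and 20 had 14.3, 27.1, 8.64, 12.8 and 14.7 CPM. The salmon-fed mice ranged from 8.67 to 40.1 CPM with a median of 25.0, and the beef-fed mice 32, 35, 39 and 40 had 25.6, 9.34, 7.63 and 8.17 CPM. The chow-fed mice were thus close together, with an SD of 0.11 on the log2 scale, the smallest of the 41 genes in that group. The HFD-fed mice were spread over a wide range, and salmon-fed mice 31 and 27, at 40.1 and 39.3 CPM, came nearest to chow. The level in HFD-fed mice was 0.408 times that in chow-fed mice (log2 fold change -1.29, SE 0.32, adjusted p = 0.0119).

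The stretch of 219 bases just upstream of the annotated Pdk4 transcripts is shown because Pdk4 separated the groups (GRCm38.p6, chr6:5496310-5496528, minus strand, promoter window of RefSeq, no annotated exon of the gene inside). A stretch of the RefSeq promoter window of Cpt1a is shown beside it (chr19:3323051-3323284, plus strand). This stretch holds no annotated exon but lies inside the annotated gene, which starts at chr19:3322334, so it is upstream of a later start and not of the whole gene. It is shown with the 6 bases of the nuclear receptor core motif AGGTCA in capitals as read on the other strand.
Pdk4 promoter: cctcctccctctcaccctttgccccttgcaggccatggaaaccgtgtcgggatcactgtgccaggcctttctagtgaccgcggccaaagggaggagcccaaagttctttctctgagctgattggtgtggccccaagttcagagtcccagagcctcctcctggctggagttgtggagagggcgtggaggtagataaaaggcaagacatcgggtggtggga
Cpt1a promoter: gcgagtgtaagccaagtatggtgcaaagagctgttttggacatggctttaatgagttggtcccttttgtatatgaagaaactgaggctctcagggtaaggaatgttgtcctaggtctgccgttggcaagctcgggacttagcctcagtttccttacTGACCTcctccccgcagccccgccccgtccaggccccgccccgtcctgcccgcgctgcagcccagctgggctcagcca
Of the 41 genes, 35 had a promoter window in RefSeq, and its 250 bases upstream of the start were searched on both strands. The core motif AGGTCA was found for 5 of the 35 genes (Acadm, Acadvl, Acot12, Acot4 and Cpt1a), and in 14.0% of all 32851 windows. The PPAR response element was searched only as an exact direct repeat of this core motif with a spacer of 1 base. This exact repeat was found for 0 of the 35 and in 0.0335% of all windows. It is so rare that its absence cannot show whether these genes lack a PPAR response element. Inexact repeats and sites outside the 250 bases were not searched. The E-box CACGTG was found for 1 of the 35 (Acot4) and in 6.02% of all windows, and the D-box TTATGNAA for 0 of the 35 and in 3.07% of all windows. The Pdk4 window held none of the 4 motifs.

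Vnn1, a pantetheinase long used as a marker of PPARα activity in liver, was the gene with the largest fold change upwards. The chow-fed mice had 35.8, 22.8, 89.2, 41.2 and 120 CPM, in the order of mice 1, 2, 5, 7 and 10. The fishmeal-fed mice had 107, 191, 180, 100.2 and 167 CPM, the beef-fed mice had 96.5, 135, 108 and 119 CPM, and the salmon-fed mice ranged from 96.1 to 168 CPM with a median of 119. All 15 HFD-fed mice lay above the chow mean, and only chow-fed mouse 10 reached into their range. The fold change was 2.11 (log2 fold change 1.08, SE 0.28, adjusted p = 0.0156). With an SD of 0.98 on the log2 scale Vnn1 was the most variable of the 41 genes among chow-fed mice.

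Bdh1 makes the last step to the ketone body 3-hydroxybutyrate in mitochondria. The chow-fed mice had 150, 191, 306, 209 and 319 CPM, in the order of mice 1, 2, 5, 7 and 10. The fishmeal-fed mice had 441, 395, 353, 272 and 444 CPM, the beef-fed mice had 281, 331, 368 and 413 CPM, and the salmon-fed mice ranged from 292 to 384 CPM with a median of 317. Chow-fed mice 5 and 10 overlapped the lower HFD-fed mice. Bdh1 was 1.48-fold higher in HFD-fed mice (log2 fold change 0.57, SE 0.15, adjusted p = 0.0182), with 15 of 15 above the chow mean. Of the 3073 stretches of 50 bases in its longest transcript, 6.22% also occur in an antisense transcript, Gm15743.

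**Figure D2:**
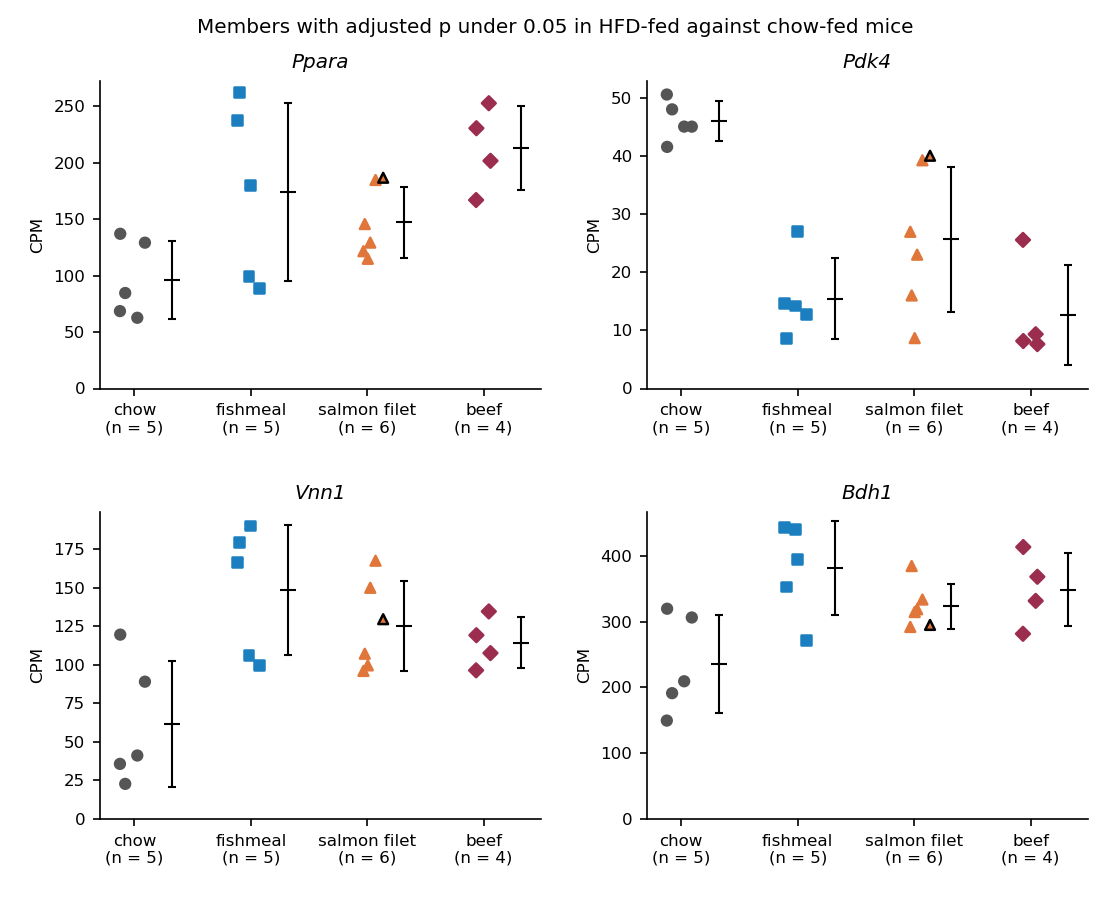
CPM of the 4 called genes in each mouse, by diet group, with the mean and SD of the group beside the points; the triangle with a black edge is mouse 31. Pdk4 is lower in all HFD-fed mice than in all chow-fed mice, while for Ppara and Bdh1 chow-fed mice 5 and 10, and for Vnn1 mouse 10, reach into the range of the HFD-fed mice.

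The same pair of chow-fed mice lay above the other chow-fed mice over most of the pathway. Mice 5 and 10 were the 2 highest chow-fed mice for 34 of the 41 genes, for 17 of the 22 mitochondrial and 10 of the 12 peroxisomal genes. The share of all genes for which this holds was not determined, so the count cannot show whether the pattern is particular to these genes. Averaged over the mitochondrial genes, mice 5 and 10 lay 0.21 and 0.31 above the chow mean on the log2 scale, and over the peroxisomal genes 0.32 and 0.43 above it, while mice 1, 2 and 7 lay below it in both classes. Mice 5 and 10 also had the highest levels among chow-fed mice of the clock genes Nr1d1 (126 and 38.8 CPM, against 3.24 to 18.3 CPM) and Dbp (2.26 and 1.80 CPM, against 0.748 to 0.933 CPM). Their summed lymphocyte markers were the lowest of the group (5.38 and 5.04 CPM, against 6.75 to 9.56 CPM), and the part of either in the levels of the 41 genes was not tested. The HFD-fed mice lay between -0.10 and 0.31 in the mitochondrial and between -0.24 and 0.48 in the peroxisomal class, so both classes overlapped between the diets. The median SD of the 41 genes on the log2 scale was 0.35 in chow-fed mice, 0.26 in fishmeal-fed, 0.20 in salmon-fed and 0.24 in beef-fed mice. Without chow-fed mouse 5 or without mouse 10, 7 of the 41 genes were called between HFD-fed and chow-fed mice, and without mouse 1, 2 or 7 only Pdk4 was. Of all genes tested, 8.76% and 8.82% were called without mouse 5 or 10, and 5.7%, 6.19% and 6.07% without mouse 1, 2 or 7. The genes added without either mouse 5 or 10 were Acaa1a and Acad11, with Decr2 added without mouse 5 and Cpt1a without mouse 10. Acaa1a and Decr2 were picked out here after their values were seen.

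**Figure D3:**
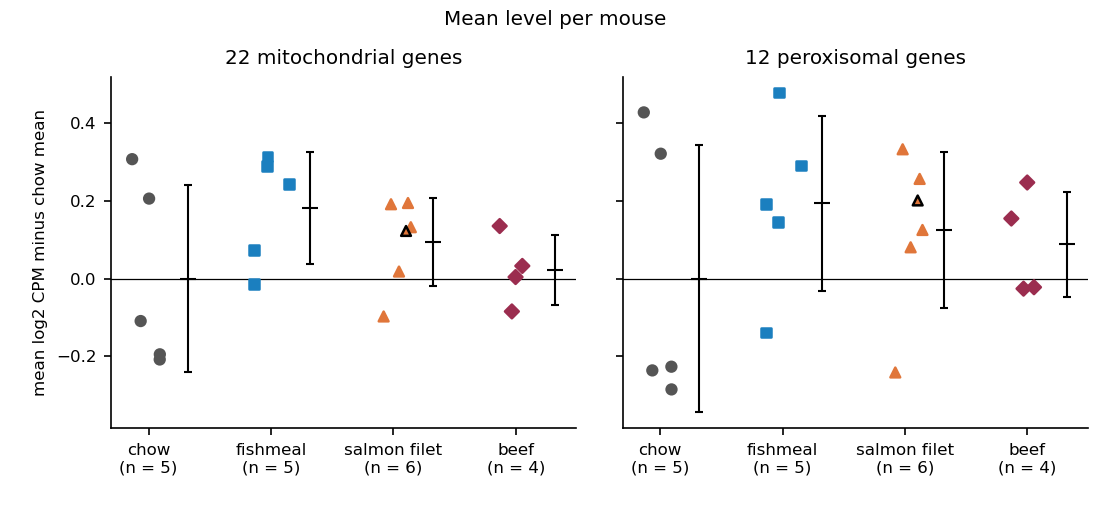
Mean log2 CPM of the 22 mitochondrial and the 12 peroxisomal genes in each mouse, minus the mean of the chow-fed mice, with the mean and SD of each group beside the points; the triangle with a black edge is mouse 31. The chow-fed mice fall into a pair near 0.21 and 0.31 (mitochondrial) or 0.32 and 0.43 (peroxisomal) and 3 mice below 0, and the HFD-fed mice lie between -0.10 and 0.31 or between -0.24 and 0.48.

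Among the mitochondrial genes, the levels per transcript length, as deposited TPM values, spanned a wide range over the 20 mice. Acaa2, the thiolase that cleaves off acetyl-CoA, had the highest mean of the 41 genes at 838 TPM (SD 117), and Acot2 the lowest at 7.07 TPM (SD 2.56). Acaa2 itself had 356, 437, 555, 462 and 550 CPM in chow-fed mice 1, 2, 5, 7 and 10 and from 373 to 643 CPM in HFD-fed mice, and its log2 fold change was 0.12 (SE 0.11, adjusted p = 0.54, 95% interval -0.11 to 0.35).

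The genes for fatty acid activation, Acsl1 and Acsl5, had log2 fold changes of 0.002 and -0.22 and did not pass the test. The 4 genes of the carnitine shuttle were all higher in sign in HFD-fed mice, and 0 of the 4 were called, with Cpt1a at an unadjusted p under 0.05. Cpt1a, the gate of mitochondrial entry, had 227, 251, 484, 233 and 579 CPM in chow-fed mice 1, 2, 5, 7 and 10 and from 288 to 615 CPM with a median of 475 in HFD-fed mice. Chow-fed mouse 10 was above all but 1 of the HFD-fed mice. The log2 fold change was 0.40 (SE 0.19, adjusted p = 0.196, 95% interval 0.01 to 0.80).

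Of the 6 acyl-CoA dehydrogenases, which start each turn of β-oxidation, 5 were higher and 1 (Acadsb) was lower in sign, with a median log2 fold change of 0.23 and 0 calls. Acadm, which acts on medium chains, had 324, 322, 485, 345 and 504 CPM in the chow-fed mice and from 373 to 653 CPM with a median of 485 in HFD-fed mice. Its log2 fold change was 0.33 (SE 0.13, adjusted p = 0.114, 95% interval 0.06 to 0.61), and 13 of the 15 HFD-fed mice were above the chow mean. Acad11, found in mitochondria and peroxisomes and the highest of the 3 genes placed in both at 109 TPM, had 306, 298, 453, 288 and 463 CPM in the chow-fed mice and from 368 to 532 CPM in HFD-fed mice. All 15 HFD-fed mice were above the chow mean, with a log2 change of 0.30 (SE 0.11, adjusted p = 0.0928, 95% interval 0.07 to 0.53).

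None of the genes for the trifunctional protein and the later steps passed the test. Hadha, which codes for the hydratase and dehydrogenase subunit, had 329, 314, 446, 344 and 443 CPM in the chow-fed mice and from 325 to 458 CPM in HFD-fed mice, a log2 change of 0.10 (SE 0.09, adjusted p = 0.552, 95% interval -0.09 to 0.28). The 4 genes of this step had log2 fold changes from 0.08 to 0.28, the 3 genes of electron transfer (Etfa, Etfb and Etfdh) from 0.06 to 0.17, and the 4 auxiliary genes for unsaturated chains (Eci1, Eci2, Decr1 and Decr2) from 0.22 to 0.30. None of these 11 genes was called by edgeR, with Hadh, Eci1 and Decr2 at an unadjusted p under 0.05, and DESeq2 called 1 of them, Hadh, at an adjusted p of 0.0463.

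In peroxisomes, 0 of the 12 genes were called, with Acaa1a and Decr2 at an unadjusted p under 0.05. Ehhadh, the bifunctional enzyme and a PPARα target, had 345, 266, 497, 271 and 634 CPM in the chow-fed mice and from 210 to 519 CPM with a median of 376 in HFD-fed mice. The log2 fold change was -0.16 (SE 0.18, adjusted p = 0.62, 95% interval -0.53 to 0.20), and it turned to 0.06 without chow-fed mouse 10, the mouse with the highest level. Acaa1b, a thiolase and the highest of the peroxisomal genes at 492 TPM (SD 135), had 269, 247, 390, 260 and 408 CPM in the chow-fed mice and from 238 to 591 CPM in HFD-fed mice, a log2 change of 0.36 (SE 0.18, adjusted p = 0.216, 95% interval -0.01 to 0.73). The other peroxisomal genes had log2 fold changes from -0.22 (Acot3 and Abcd3) to 0.54 (Acaa1a).

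Reads of 50 bases cannot always tell these genes from their relatives, and how the counting treated reads that fit several genes is not given in the sources used here. Of the 41 genes, 25 had at least 1 stretch of 50 bases in their longest transcript that also occurs, on either strand, in a transcript of another gene, and for 12 of them such stretches made up over 10% of the transcript. The second read of a pair and the strand of the reads were not taken into account, so these shares can overstate how many read pairs are ambiguous. The highest shares were 67.3% for Etfb (with the overlapping Gm45233) and 62.4% for Hadhb (with Gm13910 and Gm9108). Acaa1b shared 46.2%, Acaa1a 35.1%, Acot1 33.6% and Acot2 27.7%, while Ppara, Vnn1, Cpt1a, Acaa2 and Ehhadh shared none and Pdk4 shared 1.43%.

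The pairs Acaa1a and Acaa1b on chromosome 9 and Acot1 and Acot2 on chromosome 12 are shown as coding sequence from the GRCm38 annotation, 120 bases each, to let the near identity be seen. Capitals mark the bases at which the members of a pair differ, 14 in each window.
Acaa1a, bases 433 to 552 of 1272: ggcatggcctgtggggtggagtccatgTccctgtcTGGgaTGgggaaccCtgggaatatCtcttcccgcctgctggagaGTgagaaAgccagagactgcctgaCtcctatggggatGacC
Acaa1b, bases 433 to 552 of 1272: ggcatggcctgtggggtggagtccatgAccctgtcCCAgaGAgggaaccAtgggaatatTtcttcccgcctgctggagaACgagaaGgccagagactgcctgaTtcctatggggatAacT
Acot1, bases 767 to 886 of 1257: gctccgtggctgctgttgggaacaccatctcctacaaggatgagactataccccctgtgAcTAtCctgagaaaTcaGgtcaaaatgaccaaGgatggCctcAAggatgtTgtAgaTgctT
Acot2, bases 890 to 1009 of 1359: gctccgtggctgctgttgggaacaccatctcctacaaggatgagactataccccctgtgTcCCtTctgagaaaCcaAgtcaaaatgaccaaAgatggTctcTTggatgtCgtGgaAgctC
Over the aligned coding sequence Acaa1a and Acaa1b were 96.5% identical, with a longest identical run of 327 bases, and Acot1 and Acot2 were 95.6% identical, with a longest identical run of 273 bases. Values of these 4 genes are therefore uncertain as single genes. Acaa1a lies at chr9:119339676-119350299 and Acaa1b at chr9:119148023-119157093, and Acot1 lies at chr12:84009490-84018371 and Acot2 at chr12:83987861-83993873.

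The thioesterases, which cleave acyl-CoA back to the free acid, had 0 calls among 6 genes, 0 unadjusted p-values under 0.05 and a median log2 fold change of 0.01. Acot1, the cytosolic member, had 10.2, 12.7, 32.6, 17.0 and 50.2 CPM in chow-fed mice 1, 2, 5, 7 and 10. The fishmeal-fed mice 12, 13, 14, 16 and 20 had 9.98, 39.1, 13.3, 14.0 and 17.6 CPM, the beef-fed mice 32, 35, 39 and 40 had 5.62, 18.9, 8.03 and 12.2 CPM, and the salmon-fed mice ranged from 3.18 to 24.02 CPM. Its log2 fold change was the lowest after that of Pdk4, at -0.76 (SE 0.39, adjusted p = 0.24, 95% interval -1.57 to 0.05), with 1 of the 15 HFD-fed mice above the chow mean. Without chow-fed mouse 10 it was -0.32. Acot2, the mitochondrial member, had 3.98, 4.11, 6.38, 4.35 and 11.7 CPM in the chow-fed mice and from 3.81 to 10.4 CPM in HFD-fed mice, a log2 change of 0.02 (SE 0.24, adjusted p = 0.981, 95% interval -0.47 to 0.50).

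Beyond the 41 genes, 42 other genes of β-oxidation, fatty acid transport and ketone body formation were followed. Of the 41 that could be tested, 7 were called between HFD-fed and chow-fed mice, 5 higher and 2 lower, beside the 9.75% of all genes called (4.54% higher and 5.21% lower), with a median log2 fold change of 0.13. Among them were Acot11, a thioesterase (log2 fold change 1.28, SE 0.16, adjusted p = 1.67e-05), Acsl4, which activates arachidonic acid (-0.82, SE 0.14, adjusted p = 0.000618), and Hacl1, the lyase of peroxisomal α-oxidation (-0.70, SE 0.16, adjusted p = 0.00732). Acot11 and Hacl1 did not overlap between the groups.

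Of 32 PPARα targets outside the 41 genes, 28 could be tested and 4 were called, 3 higher and 1 lower, beside the same 9.75% of all genes, with a median log2 fold change of 0.23. These were Fabp2, a fatty acid binding protein (1.21, SE 0.16, adjusted p = 5.63e-05, groups not overlapping), Fitm1, a lipid droplet protein (0.99, SE 0.26, adjusted p = 0.0175), Cd36, a fatty acid uptake receptor (0.96, SE 0.20, adjusted p = 0.00391), and Rab9 (-0.26, SE 0.08, adjusted p = 0.0428). The classical targets Cyp4a10 and Cyp4a14, picked out after their values were seen, had log2 fold changes of -0.34 (adjusted p = 0.473) and -0.02 (adjusted p = 0.978).

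Each test diet was then set against chow, with the same 5 chow-fed mice in every comparison. In fishmeal-fed mice 1 of the 41 genes was called, where 3.38% of the genes tested were called, and the gene was Pdk4 (log2 fold change -1.58, SE 0.23, adjusted p = 0.0033). The median log2 fold change was 0.26, with 35 genes higher and 6 lower in sign, and 13 genes had an unadjusted p under 0.05, against 16.9% of all genes tested. DESeq2 called 4 genes in this comparison (Pdk4, Acadl, Acadm and Bdh1), where it called 7.13% of all genes, and a fit on all 4 groups called Pdk4, Acadm, Bdh1 and Vnn1, where it called 4.82% of all genes. Acadl, the long chain dehydrogenase, had 167, 134, 178, 177 and 195 CPM in chow-fed mice 1, 2, 5, 7 and 10 and 226, 215, 196, 214 and 221 CPM in fishmeal-fed mice 12, 13, 14, 16 and 20, so that the groups did not overlap, where 2.88% of all genes tested were without overlap in that direction (edgeR log2 fold change 0.32, SE 0.11, adjusted p = 0.126). Acadl was picked out after its values were seen. Pdk4 did not overlap either, where 2.99% of all genes tested were without overlap in the lower direction.

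In salmon-fed mice 0 of the 41 genes were called by edgeR or by DESeq2, where edgeR called 4.46% and DESeq2 8.94% of the genes tested, and 6 genes had an unadjusted p under 0.05 with either tool, against 21.5% of all genes by edgeR. The median log2 fold change was 0.13. Pdk4 had a log2 change of -0.83 (SE 0.30, adjusted p = 0.125) and, with mouse 31 counted as beef-fed, of -1.005 (SE 0.30, adjusted p = 0.0721), where 4.42% of all genes were called. Its levels in salmon-fed and chow-fed mice did not overlap, where 2.52% of all genes tested were without overlap in the lower direction. Vnn1 had 1.03 (SE 0.36, adjusted p = 0.119) and Ppara 0.62 (SE 0.22, adjusted p = 0.119), and without chow-fed mouse 10 Vnn1 was called at 1.41 (adjusted p = 0.0321).

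In beef-fed mice 2 of the 41 genes were called, where 2.48% of the genes tested were called. Pdk4 was lower (log2 fold change -1.87, SE 0.33, adjusted p = 0.0153) and Ppara was higher (1.135, SE 0.24, adjusted p = 0.0338), and neither gene overlapped between beef-fed and chow-fed mice, where 4.24% of all genes tested were without overlap in the lower and 4.13% in the higher direction. DESeq2 called the same 2 genes, where it called 6.78% of all genes. By edgeR 5 of the 41 genes had an unadjusted p under 0.05, against 17.8% of all genes. With mouse 31 counted as beef-fed, only Ppara was called (1.0996, SE 0.22, adjusted p = 0.0226, where 3.05% of all genes were called) and Pdk4 was at -1.35 (SE 0.41, adjusted p = 0.103). The call of Ppara was lost without any 1 of chow-fed mice 1, 2 or 7 or beef-fed mice 35, 39 or 40, at adjusted p-values up to 0.105, and that of Pdk4 without beef-fed mouse 40, at an adjusted p of 0.0642. The median log2 fold change was 0.10, with 27 genes higher and 14 lower in sign. With a score of the core clock genes as a covariate, Ppara was at 0.02 (SE 0.43, adjusted p = 0.99) and Pdk4 at -0.40 (SE 0.43, adjusted p = 0.751), neither was called, and the median turned to -0.44 with 37 of the 41 genes lower in sign. With mouse 31 kept in salmon filet, the scores of beef-fed mice (0.155 to 7.99) did not overlap those of chow-fed mice (-6.95 to -2.53). The values with the covariate, fitted with that grouping, thus compare the diets at scores that the 2 groups did not share. Mouse 31 had a score of -4.88, so the ranges overlap if it was fed beef.

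**Figure D4:**
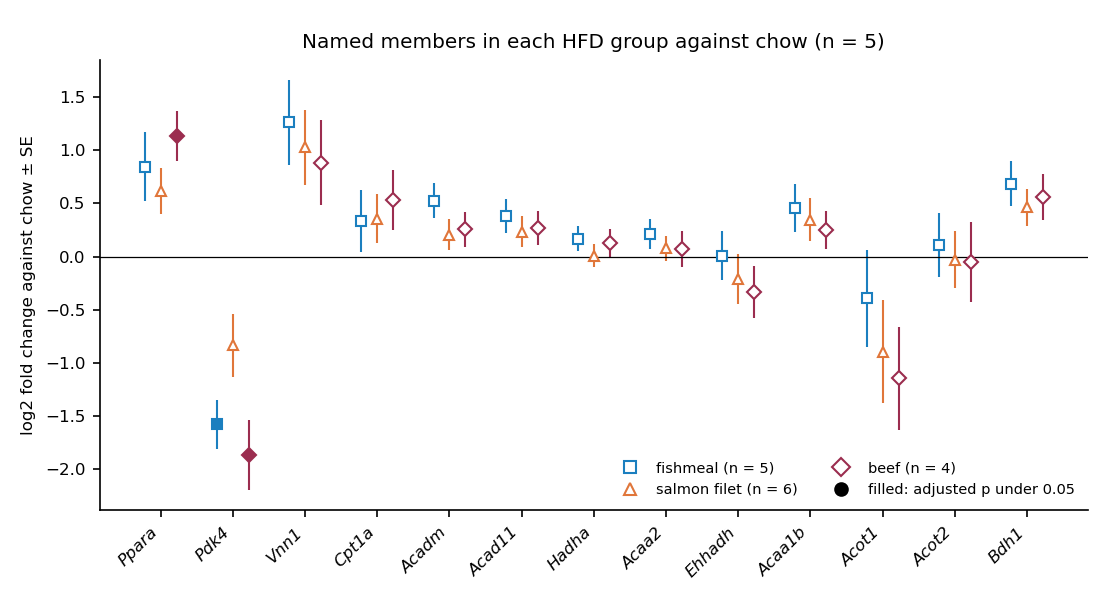
Log2 fold change against the 5 chow-fed mice of 13 genes in fishmeal-fed (n = 5), salmon-fed (n = 6) and beef-fed (n = 4) mice, with bars of 1 SE and filled symbols where the adjusted p was under 0.05. Pdk4 is called in fishmeal-fed and beef-fed mice at -1.58 and -1.87, and Ppara in beef-fed mice at 1.135. Mouse 31 is counted here as salmon-fed, and with it as beef-fed Pdk4 was not called in beef-fed mice.

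Between the test diets, 0 of the 41 genes were called in any pair by edgeR or DESeq2, where edgeR called 0.157% of the genes tested between fishmeal and salmon filet, 0.00607% between fishmeal and beef and 0% between salmon filet and beef, and DESeq2 0.496%, 0.176% and 0.0121%. In each pair 2 of the 41 genes had an unadjusted p under 0.05 by edgeR, against 4.24%, 2.33% and 3.71% of all genes, and DESeq2 gave 4, 3 and 2 such genes. By edgeR these genes were Acadl (log2 fold change 0.21) and Acadm (0.34) between fishmeal and salmon filet. They were Acadl (0.33) and Ehhadh (0.34) between fishmeal and beef. Between salmon filet and beef they were Ppara (-0.53, SE 0.16) and Pdk4 (1.03, SE 0.44). All had adjusted p-values near 1. Etfdh, picked out after its values were seen, was higher without overlap in fishmeal-fed than in beef-fed mice, where 0.334% of all genes were. This rests on mouse 31 being in salmon filet. Counted as beef-fed, it brought the highest beef value of Etfdh to 351 CPM, above the lowest fishmeal value of 344 CPM. With mouse 31 counted as beef-fed, Pdk4 differed by 0.34 (SE 0.50) and Ppara by -0.57 (SE 0.15) between salmon filet and beef. The number of genes whose whole 95% interval lay within a log2 change of -1 to 1 was 39 between fishmeal and salmon filet, 38 between fishmeal and beef and 38 between salmon filet and beef, and the widest interval was that of Acot1 in each pair. The median log2 fold changes of the 41 genes were 0.12, 0.13 and 0.03 in these pairs. The lowest and highest values were -0.73 for Pdk4 and 0.52 for Acot1 between fishmeal and salmon filet, -0.30 for Ppara and 0.75 for Acot1 between fishmeal and beef, and -0.53 for Ppara and 1.03 for Pdk4 between salmon filet and beef.

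The core clock genes moved with the diets. Of 17 clock genes 11 were called between HFD-fed and chow-fed mice, 9 higher and 2 lower, beside 9.75% of all genes, and Dbp, a clock output gene, ranged from 0.748 to 2.26 CPM in chow-fed mice and from 1.159 to 114 CPM in HFD-fed mice (log2 fold change 4.70). A clock score, the first principal component of the log2 CPM of these 17 genes, held 87.5% of their variance. It ranged from -6.95 to -2.53 in chow-fed mice and from -4.88 to 7.99 in HFD-fed mice. The hour at which each liver was taken is not given in the sources used here. Salmon-fed mice 31 and 22 had the lowest scores of the HFD-fed mice, -4.88 and -2.78, within the range of the chow-fed mice. Mouse 31 had 40.1 CPM of Pdk4, 187 CPM of Ppara, 130 CPM of Vnn1 and 295 CPM of Bdh1, and mouse 22 had 27.0, 122, 96.1 and 292 CPM of the same genes. Pdk4 of both mice was below all chow-fed mice, and Ppara of mouse 22 was within their range.

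**Figure D5:**
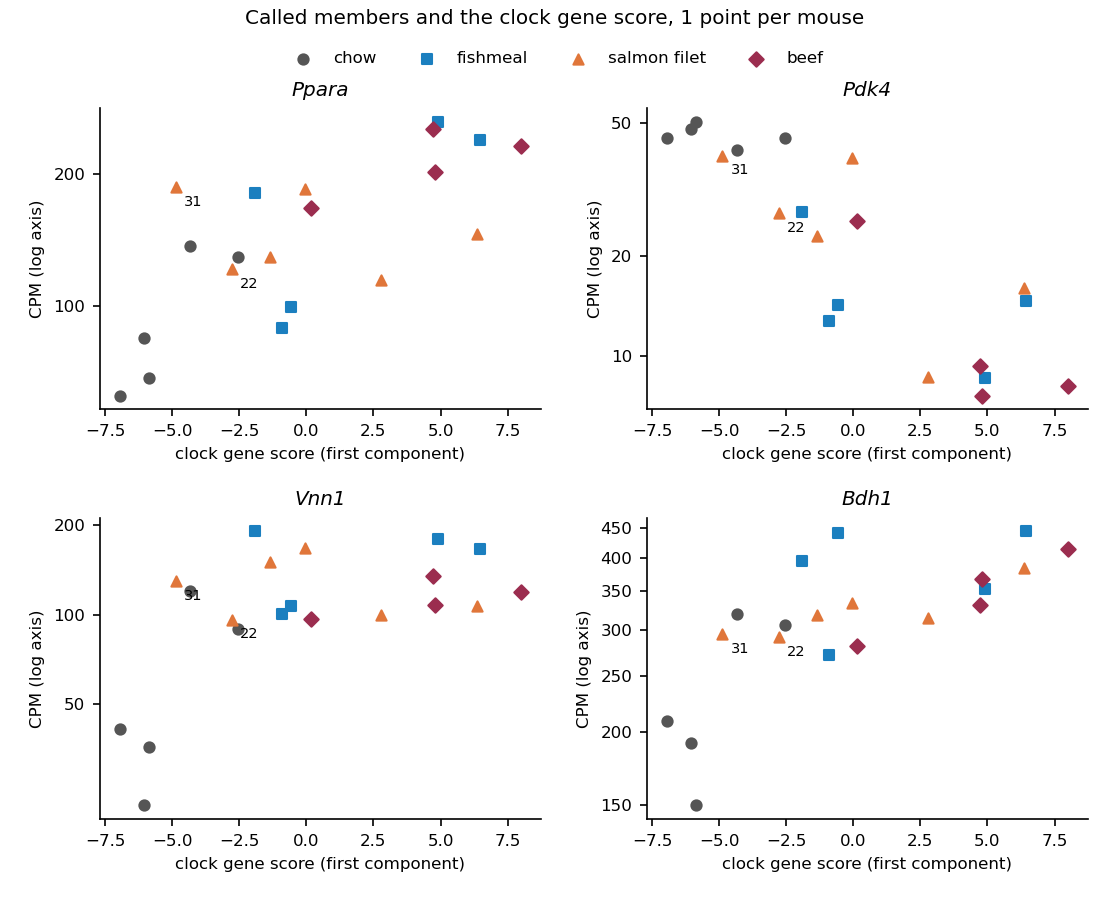
CPM of the 4 called genes (log axis) against the clock gene score of each mouse (no unit), with symbols by diet group and mice 22 and 31 numbered. Mouse 31 has the lowest score of the HFD-fed mice and 40.1 CPM of Pdk4, mouse 40 the highest score and 8.17 CPM, and the chow-fed mice lie between -6.95 and -2.53 on the score.

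With the clock score as a covariate, 0 of the 41 genes were called between HFD-fed and chow-fed mice and 1 had an unadjusted p under 0.05, where 1.75% of the genes tested were called. The log2 fold change of Pdk4 was then -0.40 (SE 0.30, adjusted p = 0.66), that of Ppara 0.37 (SE 0.26, adjusted p = 0.618), that of Bdh1 0.30 (SE 0.17, adjusted p = 0.492) and that of Vnn1 0.93 (SE 0.33, adjusted p = 0.191). The median of the 41 genes was 0.10. With the same covariate 0 of the 41 genes were called in each single diet against chow, where 0.188% of all genes were called for fishmeal, 0.367% for salmon filet and 0% for beef, and 1, 0 and 6 of the 41 genes had an unadjusted p under 0.05. Pdk4 in fishmeal-fed mice was then at -1.095 (SE 0.32, adjusted p = 0.338). Like those of beef-fed mice without mouse 31, the scores of fishmeal-fed mice (-1.92 to 6.45) lay above those of all chow-fed mice. Since the score differed between the diets, the covariate takes up part of any diet difference, and clock state and diet cannot be told apart in these mice.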

How the data were processed

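Liver poly(A) RNA was sequenced as strand-specific 50-base paired-end reads, 1 library per mouse. The authors trimmed reads, mapped them with HISAT2 1.2.1 to the mouse genome of Ensembl release 101 and counted them per gene with featureCounts 1.4.6-p1 (versions as in the submitters' processing notes); the strand and multi-mapping settings are not given in the sources used here. The deposited counts (42526234 to 70266136 per library) were used for tests, and the deposited TPM, counts scaled by the authors to gene length and library size, for levels between genes.

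The 41 genes and the other lists were chosen with earlier results of these data known. Genes were kept by filterByExpr (minimum count 10) and tested with edgeR 4.0.16 (R 4.3.3, TMM scaling) on the groups compared. DESeq2 1.42.0, limma 3.58.1 on log2(TPM + 1) with a mean of at least 0.5 TPM, other scalings, no filter, a fit on all groups, a clock covariate, mouse 31 as beef-fed and leaving out each mouse were alternatives. Groups followed the sample labels. On simulated counts for HFD against chow (17120 genes) the edgeR script was tested for recovery of known changes. Intervals are 95%. Named genes were those called in HFD against chow or between test diets, 10 fixed genes, and the gene with the highest mean TPM of each location. From each other list up to 4 called genes with the largest change were named. Some results of the other lists are not reported here. Marker lists covered hepatocytes, Kupffer cells, lymphocytes, adipocytes, exocrine pancreas, cholangiocytes, endothelial cells, stellate cells, red blood cells and muscle. Shared stretches and promoters were read from GENCODE M21 and RefSeq tables.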

Additional observations from a re-analysis of the deposited data

Results flagged for a closer look

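Of the 52 sets of 1 gene in 1 diet group that were examined for the 13 named genes, 3 held a mouse far from the others, and chance alone gives about 1 in 20. Beef-fed mouse 32 had 25.6 CPM of Pdk4, against 9.34 CPM in the next beef-fed mouse and 7.63 CPM in the lowest. Fishmeal-fed mouse 13 had 39.1 CPM of Acot1, against 17.6 CPM in the next fishmeal-fed mouse and 9.98 CPM in the lowest. Beef-fed mouse 35, whose library had a protein coding share of 84.3%, had 10.4 CPM of Acot2, against 5.07 CPM in the next beef-fed mouse and 4.01 CPM in the lowest. Without mouse 32 the log2 fold change of Pdk4 between beef-fed and chow-fed mice was -2.46 (edgeR adjusted p = 7.19e-06), against -1.87 with it. These values of beef-fed mice keep mouse 31 in salmon filet. Counted as beef-fed, mouse 31 had the highest Pdk4 of that group, 40.1 CPM, so mouse 32 was then not the highest. The flags in beef-fed mice, for Pdk4 and Acot2, were not set again with that grouping.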

How the results depend on the processing

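No paired analysis was possible because the replicate numbers of the groups were given in accession order and mark no shared animal, litter or day. Between HFD-fed and chow-fed mice, the count of called genes was 6 with DESeq2, 3 with limma on TPM and 4 with 2 other scalings, without the low count filter and in a fit on all 4 groups, and 0 with the clock covariate. Leaving out 1 mouse gave 1 to 7 called genes, and Pdk4 was called in 20 of the 20 such fits and Ppara, Vnn1 and Bdh1 in 17 each. In fishmeal-fed against chow-fed mice the count was 4 with DESeq2 and in the fit on all 4 groups and 0 with the clock covariate, whose median log2 fold change was 0.0635, and 1 to 2 without 1 mouse. In salmon-fed mice it was 0 to 1 without 1 mouse. In beef-fed mice it was 0 with the clock covariate, whose median was -0.44, 1 with mouse 31 as beef-fed, and 0 to 2 without 1 mouse. With the clock covariate the log2 fold changes of Hadha, Acaa2 and Acot2 between HFD-fed and chow-fed mice turned to -0.0311, -0.0469 and -0.0535. Leaving out 1 mouse gave -0.282 to 0.0613 for Ehhadh and -0.11 to 0.39 for Acot2. The cause of these shifts was not tested. In the comparisons between groups of 4 to 6 mice the 95% interval of Acot1, the widest of the 41 genes, reached 0.916 to 1.07 log2 units to either side.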
